A study of Mus musculus with 21 samples.

Results

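The 9 genes described here code for intermediate filament proteins: 8 keratins (Krt5, Krt7, Krt8, Krt14, Krt18, Krt19, Krt20 and Krt23) and vimentin (Vim). They were taken as a fixed list and found by gene symbol in both array tables, as 9 of 18193 genes in the NMuMG table and 9 of 12393 in the NM18 table. Where a gene had several probe sets, the one with the highest mean over a table's arrays stood for it, and the others served as a check. Krt8, Krt14 and Vim had 3 probe sets each, and the other 6 genes had 1.

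Intermediate filaments are rope-like polymers that give animal cells mechanical strength. Keratins are the epithelial members and assemble only as pairs of an acidic type I chain (here Krt14, Krt18, Krt19, Krt20 and Krt23) and a basic type II chain (here Krt5, Krt7 and Krt8). Krt8 and Krt18 form the basic filament of single-layered epithelia, including the luminal cells of the mammary gland, where Krt7 and Krt19 are also found. Krt5 and Krt14 pair in basal and myoepithelial cells. Vimentin builds the filament of mesenchymal cells and of many cultured epithelial lines, and a shift from keratin to vimentin filaments is widely used as a mark of the epithelial to mesenchymal transition.

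Affymetrix mouse arrays were used to measure messenger RNA in cultured cells. The treatment was TGF-b1 (transforming growth factor beta 1), a protein cells secrete and sense, which can set off that transition. NMuMG cells, a line from normal mouse mammary gland, were all grown for 2 h with 200 µM 4-thiouridine (4sU), which marks RNA made during that time, either without TGF-b1 or with 5 ng/ml of it. From each condition, total RNA and the 4sU-carrying fraction, here called newly made RNA, were hybridised, which gave 4 groups of 3 arrays. NM18 cells, a clonal line derived from NMuMG, were transfected for 48 h with 25 nM siRNA. The 3 groups of 3 arrays were scrambled control siRNA alone, the same siRNA with 5 ng/ml TGF-b1 added after 8 h for the last 40 h, and siRNA against the forkhead factor FoxQ1 with the same TGF-b1. FoxQ1 siRNA was not combined with a condition free of TGF-b1, so an effect of the siRNA can be read only in treated cells. The replicates are described as biological, and both lines are single cultured lines, so the p-values measure the spread between cultures of a line.

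Levels are log2 values as deposited, so a difference of 1 is a doubling. Levels of different genes come from different probes and are not compared with each other. A value after a level with ± is the SD over 3 arrays, and after a log2 change it is the standard error. A gene was called changed at a limma adjusted p under 0.05, with the Benjamini-Hochberg adjustment over all genes of the table. Unless a block is named, calls come from a fit that does not use the replicate numbers. Foxq1 itself stood at 8.26 ± 0.31 in untreated NM18 cells, 9.15 ± 0.16 with TGF-b1 and 7.88 ± 0.27 with TGF-b1 and FoxQ1 siRNA, a fall by 1.27 ± 0.16 with the siRNA (limma adjusted p = 0.000291). Cdh1, the adhesion protein that defines epithelial cells, averaged 11.01 over the NMuMG arrays and 11.92 over the NM18 arrays. Ptprc, which marks leukocytes, averaged 3.99 and 5.94, in tables whose lowest values were 2.34 and 4.57. Not all markers of these kinds read alike. Of 10 listed luminal markers, 4 averaged above the median gene in the NMuMG table and 2 in the NM18 table. Of 9 listed leukocyte markers, 1 did so in each. Cd14, also listed as a leukocyte marker, averaged 10.96 and 10.01, and Epcam, also listed as a luminal epithelial marker, averaged 7.55 and 6.205. Array 1 of untreated control siRNA has a free-text description of a protocol with TGF-b1, but it is untreated by title and by treatment entry. The title was followed, and the calls of Krt19 and Krt20 given below also held without that array.

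Krt20 and Krt23 are direct neighbours on chromosome 11 and are transcribed from the same strand. Their upstream stretches are shown because Krt20 was the keratin that differed under FoxQ1 siRNA, its neighbour Krt23 was not called in that comparison, and both stretches hold the forkhead core. Krt23 averaged only 5.84 over the NM18 arrays, in a table whose lowest value was 4.57. Whether its probe set registers a change at such low signal was not tested. The 250 bases before each start site are printed 5′ to 3′ on the minus strand of the GRCm38.p6 build, from RefSeq. Capitals mark matches on either strand to the forkhead core TGTTTA and to the SMAD box CAGAC, the short sequence read by the SMAD proteins that carry the TGF-b1 signal.
Krt20, chr11:99438154-99438403: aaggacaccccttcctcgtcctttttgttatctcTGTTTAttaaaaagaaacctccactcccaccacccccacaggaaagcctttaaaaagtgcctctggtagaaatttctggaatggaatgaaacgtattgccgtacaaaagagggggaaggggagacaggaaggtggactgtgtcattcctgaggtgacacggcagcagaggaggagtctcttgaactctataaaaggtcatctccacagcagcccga
Krt23, chr11:99493121-99493370: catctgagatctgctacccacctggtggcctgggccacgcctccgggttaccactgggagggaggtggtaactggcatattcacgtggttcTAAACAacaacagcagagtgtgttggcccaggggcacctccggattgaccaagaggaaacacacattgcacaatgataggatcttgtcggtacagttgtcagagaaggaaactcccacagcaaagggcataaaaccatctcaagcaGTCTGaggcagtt
The forkhead core began 216 bases before the start site of Krt20 and, on the opposite strand, 159 bases before that of Krt23. The SMAD box of Krt23 began 13 bases before the start site, and the only one in the Krt20 window lay 3 bases after it, outside the printed stretch.

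Windows of 300 bases, from 250 before to 50 after the start site, were given for 8 of the 9 genes, all but Krt19. On both strands, the SMAD box was in 6 of these 8 windows and in 49.6% of all 32851 windows of the RefSeq table. The forkhead core was in 2 of 8, those of Krt20 and Krt23, and in 13.4% of all windows. The GC box GGGCGG, a binding sequence of SP1, was in 1 of 8, that of Krt7, which held 4, and in 35.7% of all. The AP-1 site TGANTCA was in 0 of 8 and in 7.81% of all. In the printed stretches no match overlaps another, and a match is a string of letters, not a measured site.

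After 2 h of TGF-b1 in NMuMG cells, newly made Krt20 RNA rose and newly made Krt19 RNA fell, while in total RNA the rise of Krt20 was the only call among the 9 genes. In newly made RNA 2 of 9 genes were called in either direction, against 6.13% of all genes, and 4 of 9 had an unadjusted p under 0.05, against 15.8% of all genes. In total RNA 1 of 9 was called higher, against 1.46% of all genes, and the other 8 were not called. The median change of the 9 genes was 0.20 in newly made and -0.03 in total RNA, beside -0.01 and -0.03 over all genes.

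**Figure D1:**
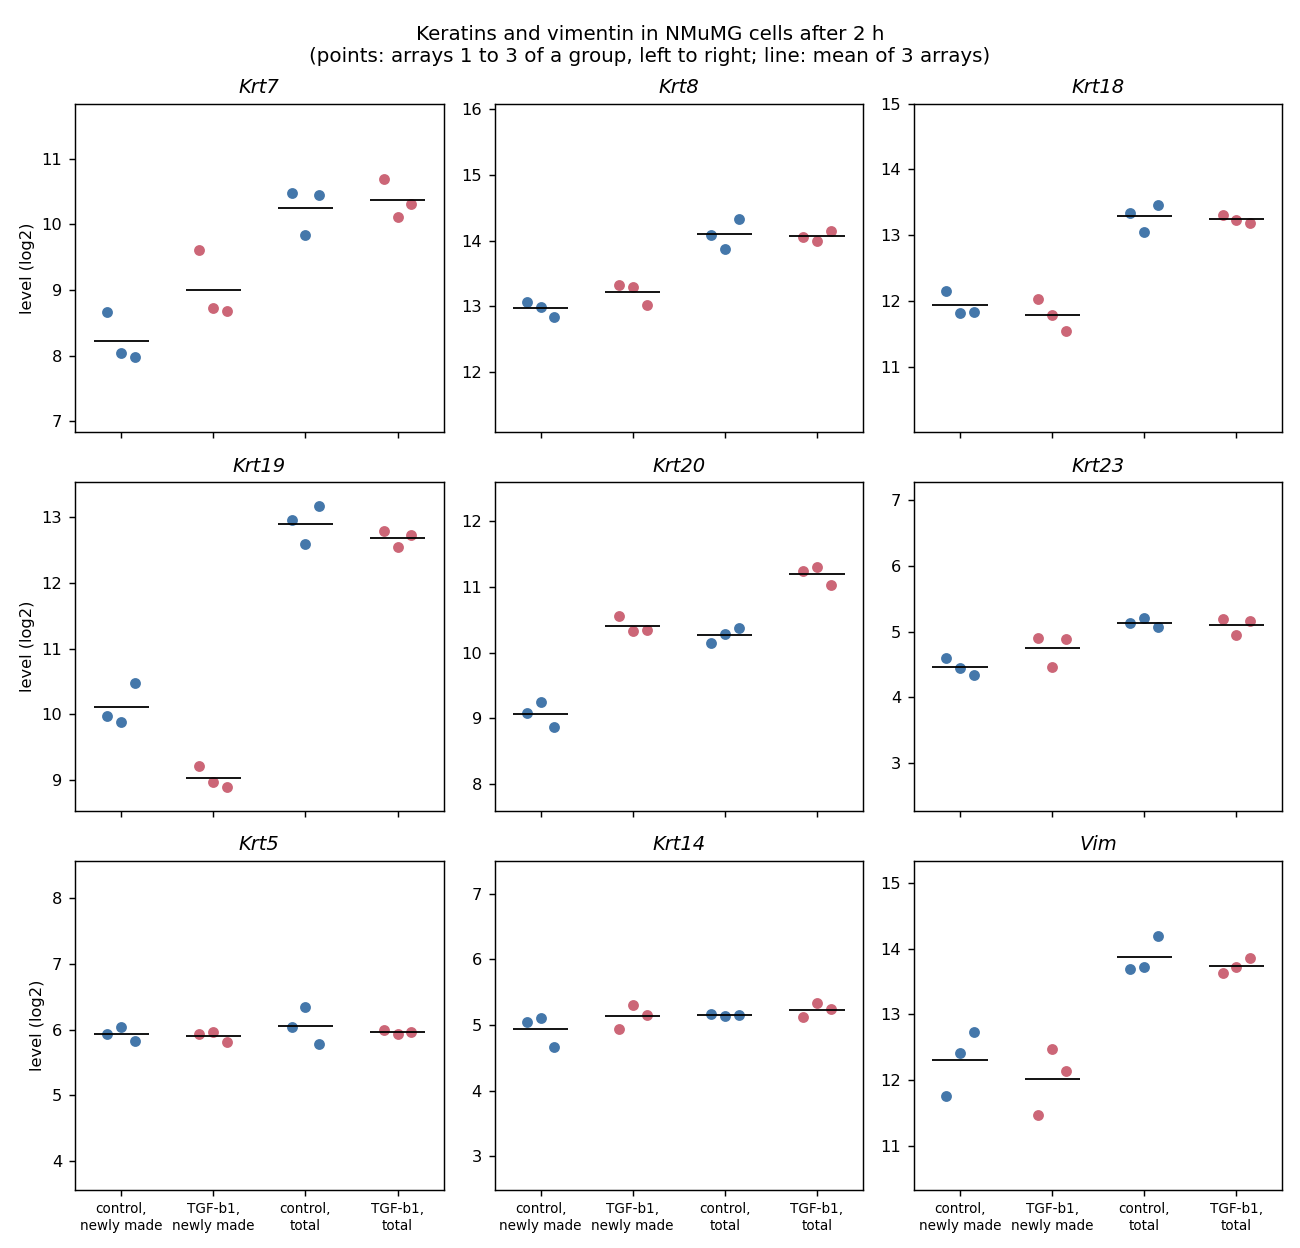
Level (log2, y axis, one scale length in all panels) of each gene on the 12 NMuMG arrays, by group on the x axis, with points for arrays and lines for the mean of 3. Krt20 was higher with TGF-b1 in both kinds of RNA without overlap, Krt19 was lower with TGF-b1 in newly made RNA without overlap, and 7 genes, all but Krt5 and Krt14, were lower in newly made than in total RNA.

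Krt19 is a type I keratin of simple epithelia. On the 3 newly made control arrays it read 9.98, 9.89 and 10.48, and with TGF-b1 it read 9.22, 8.98 and 8.89. Every TGF-b1 array lay below every control array. It fell by 1.09 ± 0.17 on the log2 scale, a 2.12-fold fall (limma adjusted p = 0.000677). The arrays measure bulk RNA, in which fewer cells with a transcript and less of it per cell cannot be told apart.

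In total RNA the 3 Krt19 control arrays read 12.96, 12.59 and 13.17, and the TGF-b1 arrays 12.79, 12.55 and 12.73. These groups overlapped, and the change of -0.21 ± 0.17 was not called (limma adjusted p = 0.838, 95% interval -0.58 to 0.15). The difference between the effects in newly made and in total RNA was -0.87 ± 0.24, with an unadjusted p of 0.0024 and a limma adjusted p of 0.682. With the replicate number as a block within each kind of RNA, the adjusted p of that difference was 0.0392. None of the 9 genes was called for such a difference without the block, against 0.066% of all genes. Krt19 and Krt20 had an unadjusted p under 0.05, as did 2.92% of all genes. In order of level, control total and TGF-b1 total came first and did not differ beyond their spread, then control newly made, then TGF-b1 newly made.

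Krt20 is a type I keratin best known from the lining of the gut and from the umbrella cells of the bladder. Newly made Krt20 read 9.08, 9.25 and 8.87 without TGF-b1 and 10.56, 10.33 and 10.35 with it. Total Krt20 read 10.14, 10.28 and 10.37 without and 11.24, 11.31 and 11.02 with TGF-b1. In both kinds of RNA every treated array lay above every control array. The rise was 1.34 ± 0.13, or 2.54-fold, in newly made RNA (limma adjusted p = 5.89e-06) and 0.93 ± 0.13, or 1.90-fold, in total RNA (limma adjusted p = 0.000391). The difference between these effects was 0.42 ± 0.18 (unadjusted p = 0.0353), and its limma adjusted p was 1. In order of level, TGF-b1 total was highest, then TGF-b1 newly made and control total, whose arrays overlapped, then control newly made.

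Krt7, a type II keratin of glandular ducts, read 8.66, 8.04 and 7.98 in newly made RNA without TGF-b1 and 9.61, 8.72 and 8.68 with it. Each treated array lay above the control array of its own number, and the treated arrays also lay above all control arrays. The change was 0.78 ± 0.25 with a limma adjusted p of 0.0955, so it was not called. With the replicate number as a block within each kind of RNA the adjusted p was 3.39e-05, and without control array 1 the change was 0.99 with an adjusted p of 0.0214. Without TGF-b1 array 1 it was 0.47 with an adjusted p of 0.362. In total RNA the change was 0.11 ± 0.25 (limma adjusted p = 0.954), with controls between 9.83 and 10.48 and treated arrays between 10.10 and 10.69.

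Krt8 and Krt18, the filament partners that sit next to each other on chromosome 15, were not called at 2 h. Newly made Krt8 read 12.97 ± 0.12 without and 13.21 ± 0.17 with TGF-b1, a difference of 0.25 with a 95% interval from -0.04 to 0.53. Newly made Krt18 read 11.93 ± 0.19 and 11.79 ± 0.24, a difference of -0.14 with an interval from -0.45 to 0.16. In total RNA their differences were -0.03 and -0.04. Total Krt8 read 14.10 without TGF-b1, near the table's highest value of 14.8, and whether the signal still responds there was not tested. The other 2 probe sets of Krt8 gave 0.21 and 0.24 in newly made RNA and were not called.

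Vimentin was not called at 2 h either. Newly made Vim read 11.76, 12.41 and 12.72 without TGF-b1 and 11.46, 12.47 and 12.13 with it, and the groups overlapped. The difference was -0.28 ± 0.24 (limma adjusted p = 0.710, interval -0.80 to 0.24), and -0.13 ± 0.24 in total RNA. The other 2 Vim probe sets gave -0.28 and -0.25 in newly made RNA. These intervals hold no rise of Vim above 0.39 on the log2 scale, the upper end in total RNA, at this time. Total Vim read 13.87 without TGF-b1, in a table whose highest value was 14.8. Whether the signal still responds fully at that level was not tested.

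Krt5, Krt14 and Krt23 lay in the low part of the table's range of 2.34 to 14.8. Over the 12 arrays Krt5 was between 5.78 and 6.35, Krt14 between 4.66 and 5.33 and Krt23 between 4.34 and 5.20. None was called with TGF-b1 in either kind of RNA, and the nearest was Krt23 in newly made RNA with 0.29 ± 0.13 (unadjusted p = 0.0457, limma adjusted p = 0.301). For Krt14 the 3 probe sets disagreed in sign in newly made RNA, with 0.20, 0.11 and -0.20, and the one that stands for the gene is of a class whose probes may also match related genes. Whether these probe sets register a change at such low signal was not tested.

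**Figure D2:**
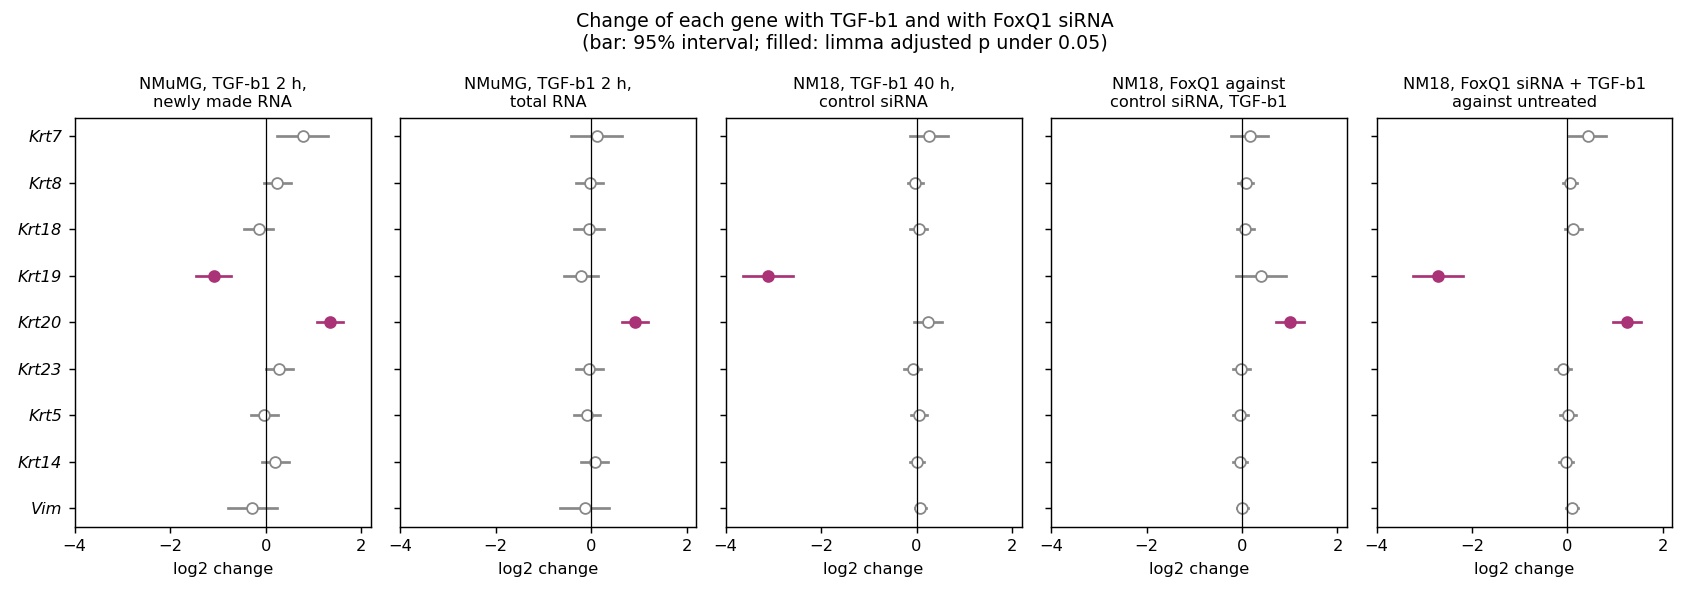
Log2 change (x axis) of each of the 9 genes in 5 comparisons, with 95% intervals, and filled points for a limma adjusted p under 0.05. In these fits without a replicate block, Krt19 and Krt20 were the only genes called. Krt19 reached -3.11 at 40 h, and Krt20 rose at 2 h and under FoxQ1 siRNA.

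After 40 h of TGF-b1 in NM18 cells under control siRNA, Krt19 had fallen 8.64-fold. The other 7 keratins and Vim were not called in the fit without a replicate block. Krt19 was thus 1 of 9 genes called lower, against 17.5% of all genes, and none was called higher. The median change of the 9 genes was 0.05, beside 0.00 over all genes. Krt19 read 13.51, 13.27 and 13.71 in untreated cells and 10.06, 10.86 and 10.24 with TGF-b1. The lowest untreated array lay above the highest treated one by more than the range within either group. The log2 change was -3.11 ± 0.24 (limma adjusted p = 5.44e-06, 95% interval -3.63 to -2.59).

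Krt20 at 40 h read 11.23, 11.31 and 11.52 without and 11.42, 11.72 and 11.65 with TGF-b1, and the groups overlapped, although each treated array lay above the untreated array of its own number. The change of 0.24 ± 0.13 was not called (limma adjusted p = 0.219, interval -0.05 to 0.54), nor was it with the replicate number as a block (limma adjusted p = 0.0845). The rises of 1.34 and 0.93 at 2 h were measured in the other line, with other labelling, and a difference between times or lines was not tested. Krt7 read 11.28, 11.03 and 11.43 without and 11.53, 11.23 and 11.77 with TGF-b1, higher in each of the 3 numbered pairs. Its change was 0.27 ± 0.18 (limma adjusted p = 0.334), and with the replicate number as a block the adjusted p was 0.00896.

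Krt8 and Krt18 lay between 14.18 and 14.57 on all 9 NM18 arrays, close to the highest value of the table, 14.6. Their changes at 40 h were -0.02 (interval -0.18 to 0.13) and 0.05 (interval -0.13 to 0.22). Whether the signal still responds to a change of RNA so close to the top of the scale was not tested. Vim lay between 13.75 and 13.88 on all 9 arrays, also near the top of the scale, where its response was likewise not tested. It read 13.77 ± 0.03 without and 13.85 ± 0.02 with TGF-b1, a change of 0.08 with an interval from -0.04 to 0.20 (limma adjusted p = 0.331), and its other probe sets gave 0.00 and -0.04. The differences of Krt5, Krt14 and Krt23 were 0.05, 0.01 and -0.08, and none was called. These genes averaged 6.99, 6.08 and 5.84 over the NM18 arrays, where the median gene level was 7.79. Whether their probe sets register a change at such low signal was not tested.

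**Figure D3:**
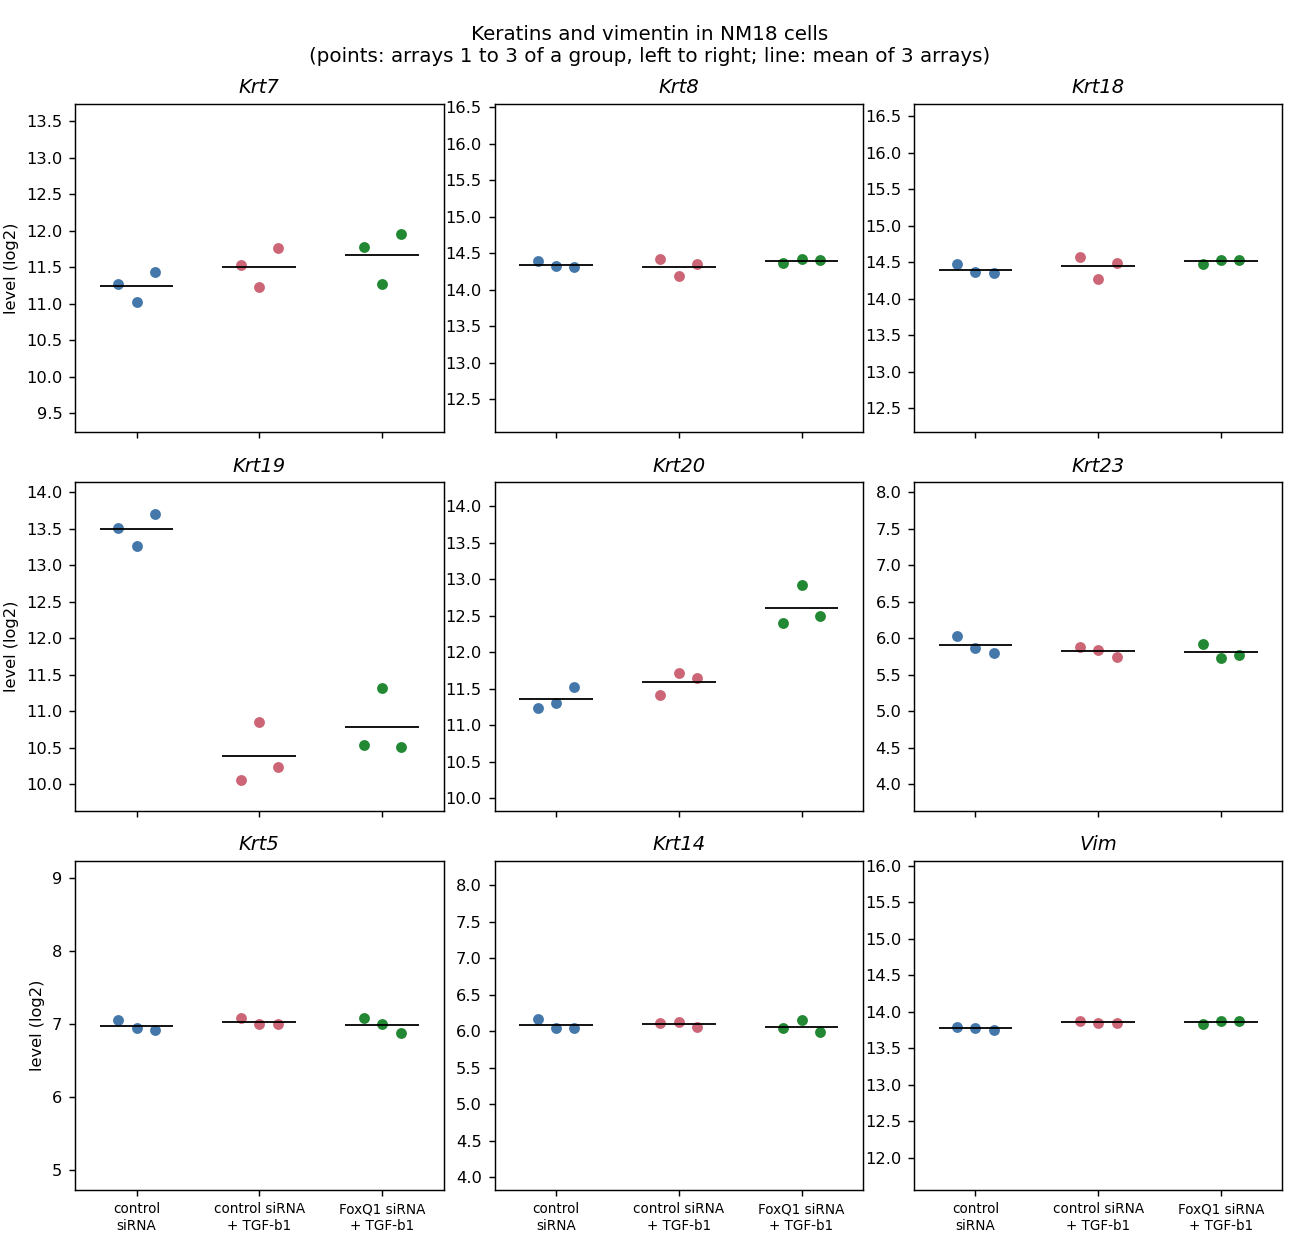
Level (log2, y axis, one scale length in all panels) of each gene on the 9 NM18 arrays, by group on the x axis, with points for arrays and lines for the mean of 3. Krt19 fell from about 13.5 without TGF-b1 to between 10.06 and 11.32 with it, and Krt20 was highest in the group with FoxQ1 siRNA, from 12.40 to 12.92.

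Under TGF-b1, cells with FoxQ1 siRNA had more Krt20 than cells with control siRNA, and no other of the 9 genes was called. This was 1 of 9 called higher, against 11.3% of all genes, and the median change was 0.07, beside -0.00 over all genes. Krt20 read 12.40, 12.92 and 12.50 with FoxQ1 siRNA, above all 3 arrays with control siRNA and TGF-b1 and above all 3 untreated arrays. The rise over control siRNA with TGF-b1 was 1.01 ± 0.13, or 2.01-fold (limma adjusted p = 0.000356).

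Krt19 with FoxQ1 siRNA and TGF-b1 read 10.53, 11.32 and 10.51. Each array was higher than the control siRNA array of the same number, yet the groups overlapped, and the difference of 0.40 ± 0.24 was not called (limma adjusted p = 0.299, interval -0.12 to 0.92). It was 0.14 without FoxQ1 siRNA array 2 and 0.64 without control siRNA array 2 of the TGF-b1 group, and it was called in none of the alternatives. The differences for Krt7, Krt8, Krt18 and Vim were 0.16 (interval -0.24 to 0.55), 0.08 (interval -0.08 to 0.23), 0.07 (interval -0.11 to 0.25) and 0.01 (interval -0.11 to 0.13). Krt5, Krt14 and Krt23 differed by -0.04, -0.04 and -0.01, at the low signals given above.

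Against untreated cells, cells with FoxQ1 siRNA and TGF-b1 had 6.55-fold less Krt19, a fall by 2.71 ± 0.24 (limma adjusted p = 4.61e-06). They had 2.38-fold more Krt20, a rise of 1.25 ± 0.13 (limma adjusted p = 2.26e-05). These 2 of 9 genes stand against 37.9% of all genes called in either direction. An unadjusted p under 0.05 was reached by 3 of 9, against 43.8% of all genes, and Krt7 was the third. Its change was 0.42 ± 0.18 with a limma adjusted p of 0.0903, and 0.000449 with the replicate number as a block. Without FoxQ1 siRNA array 2 it was 0.62 with an adjusted p of 0.00779, and without FoxQ1 siRNA array 3 it was 0.28 with an adjusted p of 0.305. The 3 NM18 comparisons share groups of arrays and are not independent of each other. In order of level, Krt20 was highest with FoxQ1 siRNA, and the 2 groups with control siRNA did not differ beyond their spread. Krt19 was highest without TGF-b1, and the 2 treated groups did not differ beyond theirs.

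In NMuMG cells, 7 of the 9 genes gave lower values in newly made than in total RNA, in control cells and also with TGF-b1, against 26.8% of all genes called lower in control cells and 26.8% with TGF-b1. In control cells Krt19 differed most, by -2.79 ± 0.17, followed by Krt7 at -2.03 ± 0.25, Vim at -1.57 ± 0.24, Krt18 at -1.36 ± 0.15, Krt20 at -1.20 ± 0.13, Krt8 at -1.13 ± 0.13 and Krt23 at -0.68 ± 0.13. Krt5 and Krt14 differed by -0.12 and -0.21 and were not called. With TGF-b1 the difference was -3.66 for Krt19, -1.71 for Vim, -1.46 for Krt18, -1.36 for Krt7, -0.85 for Krt8, -0.78 for Krt20 and -0.35 for Krt23 (limma adjusted p = 0.0422). The call of Krt23 was lost without TGF-b1 newly made array 2 (adjusted p = 0.238), without TGF-b1 total array 1 (0.138) and without TGF-b1 total array 3 (0.117). These comparisons use the same arrays as the TGF-b1 comparisons at 2 h. The median over the 9 genes was -1.20 in control cells and -0.85 with TGF-b1, beside -0.08 over all genes in each.

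These differences compare a fraction with the whole after amplification, and are not amounts of RNA per cell. The array medians averaged 5.96 and 5.94 in newly made and 5.72 in total RNA, and the scaling between arrays was not stated in the labels. Quantile normalization moved the median difference of all genes in control cells from -0.08 to -0.18 and median centring to -0.33. Under quantile normalization the difference in control cells shrank to -0.52 for Krt8, -0.83 for Krt18 and -0.91 for Vim, all still called, and Krt5 and Krt14 became called at -0.38 and -0.32. With TGF-b1 it shrank to -0.41 for Krt8. All 3 Vim probe sets were called lower in control cells, but by unequal amounts, -1.57, -0.72 and -0.99. The 3 Krt8 probe sets gave -1.13, -1.24 and -1.16.

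**Figure D4:**
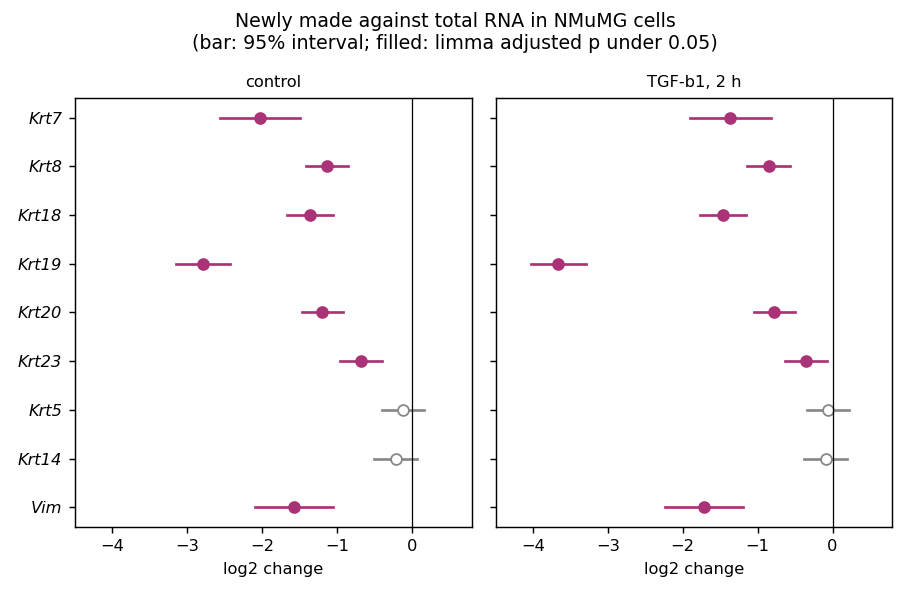
Newly made minus total RNA (log2, x axis) for each of the 9 genes in control and in TGF-b1 treated NMuMG cells, with 95% intervals, and filled points for a limma adjusted p under 0.05. Krt19 lay lowest in both, at -2.79 and -3.66, and the intervals of Krt5 and Krt14 included 0.

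Most of the remaining keratins were not called. Only 6 of 40 in NMuMG cells and 3 of 32 in NM18 cells averaged above the median gene of their table. Whether the probe sets at low signal register a change was not tested. The counts for this list and all lists below stand beside these over all genes. At 2 h 609 of 18193 were called higher and 507 lower in newly made RNA, and 266 and 186 in total RNA. Of 12393 in NM18 cells, 1642 were higher and 2165 lower at 40 h, and 1399 and 1026 under FoxQ1 siRNA. Against untreated cells 2392 were higher and 2303 lower with FoxQ1 siRNA and TGF-b1. In NMuMG cells Krt80, a type II keratin encoded next to Krt7, was the only one of 40 other keratins to rise with TGF-b1 in newly made RNA, by 0.46 ± 0.11 (limma adjusted p = 0.0240), and in total RNA, by 0.60 ± 0.11 (limma adjusted p = 0.00634), and none fell. At 40 h in NM18 cells 2 of 32 rose, Krt80 by 0.29 ± 0.08 and Krt16, a keratin of stressed epidermis, by 0.36 ± 0.12, and none fell. Under FoxQ1 siRNA 0 of 32 were called in the limma fit, and 0 had an unadjusted p under 0.05, against 30.2% of all genes. The median change of this list was 0.02, 0.06, 0.01 and -0.04 in these 4 comparisons, beside -0.01, -0.03, 0.00 and -0.00 over all genes. Against untreated cells 1 of 32 was lower with FoxQ1 siRNA and TGF-b1, Krt79 at -0.23 ± 0.07.

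Of the other intermediate filament genes (desmin, nestin, neurofilaments, lamins and others), 0 of 15 were called in the limma fit with TGF-b1 at 2 h in either kind of RNA. Most of this list was also of low signal, with 4 of 15 above the median gene in NMuMG cells and 2 of 13 in NM18 cells. In newly made RNA 2 had an unadjusted p under 0.05, against 15.8% of all genes, and in total RNA 1 did, against 9.63%. At 40 h 0 of 13 were called, with 2 at an unadjusted p under 0.05, against 38.3% of all genes. Under FoxQ1 siRNA 2 of 13 fell, both of them lamins, which line the nucleus. Lmnb1 fell by 1.22 ± 0.16 (limma adjusted p = 0.000321) and Lmna by 0.55 ± 0.09 (limma adjusted p = 0.000998). The list's median was -0.01 there, close to the -0.00 over all genes.

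Genes of the linkers that tie filaments to desmosomes and to the rest of the cell skeleton moved in both directions. At 2 h in newly made RNA 2 of 13 rose and 2 fell. Jup, which codes for plakoglobin, rose by 0.85 ± 0.11, Dst, a plakin of the hemidesmosome, rose by 0.69 ± 0.12, and Ppl, which codes for periplakin, fell by 0.71 ± 0.15. In total RNA Jup was the only one of 13 called, at 0.80 ± 0.11. The list's median was 0.28 and 0.19 in the 2 kinds of RNA, beside -0.01 and -0.03 over all genes.

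At 40 h in NM18 cells 6 of 12 linkers rose and 1 fell, beside 1642 higher and 2165 lower of all 12393 genes, and the median was 0.39, beside 0.00 over all genes. Ppl fell by 1.20 ± 0.09, Pkp2, which codes for a desmosomal plakophilin, rose by 0.83 ± 0.09, and Dst rose by 1.53 ± 0.23. Under FoxQ1 siRNA 2 of 12 rose and 2 fell, with a median of -0.03. Jup rose by 0.63 ± 0.11, Ppl fell by 0.49 ± 0.09, and Fam83h, a protein of keratin filaments, rose by 0.26 ± 0.08. Against untreated cells 7 of 12 were higher and 1 lower with FoxQ1 siRNA and TGF-b1.

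Transcription factors known to act on keratin genes were mostly uncalled at 2 h. In newly made RNA 1 of 16 rose, Elf3, an epithelial ETS factor, by 0.44 ± 0.11, and in total RNA Elf3 rose by 0.64 ± 0.11 and Klf5 fell by 0.78 ± 0.13. At 40 h 5 of 15 fell, against 17.5% of all genes called lower, and none rose. Among those that fell, Cebpa changed by -1.24 ± 0.13, Ehf by -1.998 ± 0.28 and Klf5 by -1.33 ± 0.20. The list's median was -0.02, beside 0.00 over all genes. Under FoxQ1 siRNA Elf3 rose by 0.78 ± 0.09 and Klf4 fell by 1.11 ± 0.12, and the other 13 of 15 were not called. The median changes of this list at 2 h were 0.02 and -0.01.

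**Figure D5:**
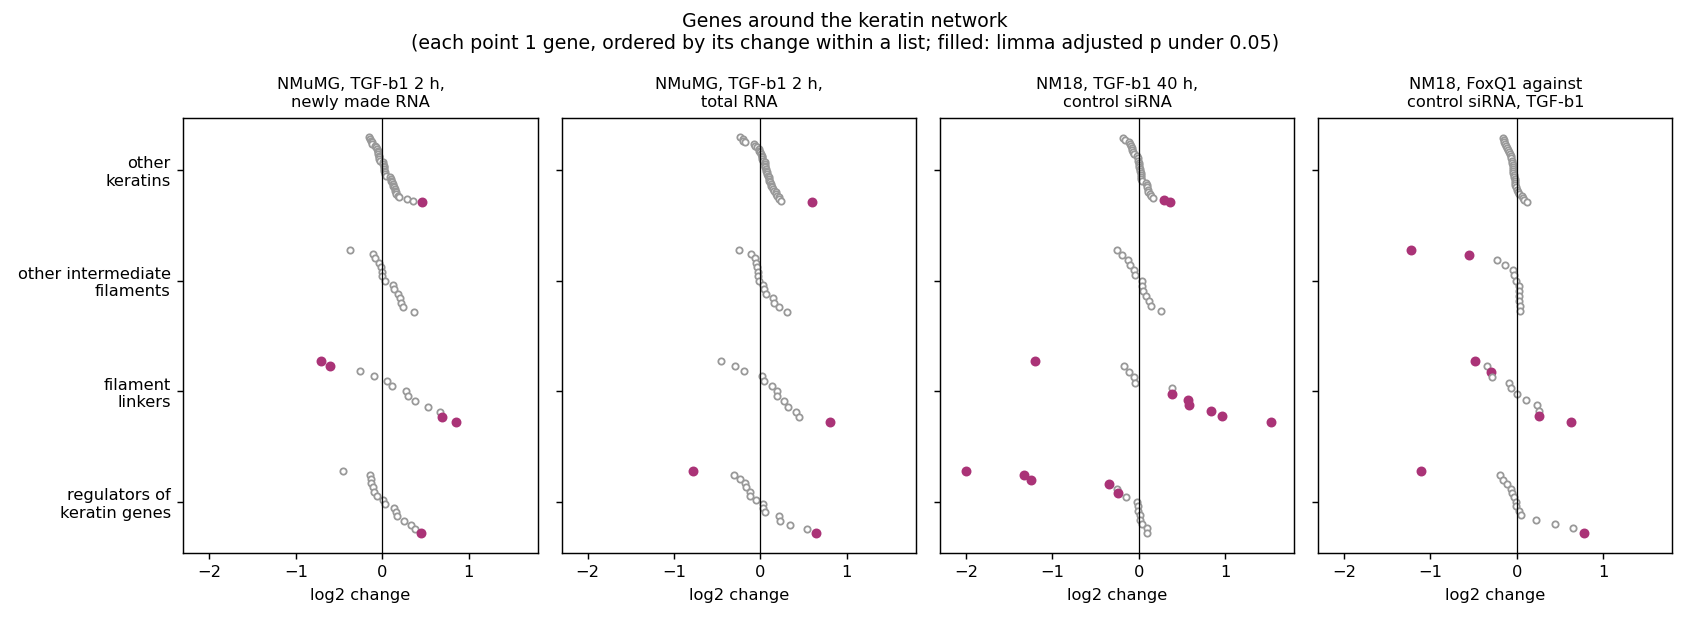
Log2 change (x axis) of every measured gene of 4 lists (y axis) in 4 comparisons, 1 point a gene, ordered within its list, filled where the limma adjusted p was under 0.05. Other keratins, most of them below the median gene level, stayed close to 0. Linkers spread from -1.20 (Ppl) to 1.53 (Dst) at 40 h, and regulators reached -1.998 (Ehf) at 40 h.

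Some markers of other cell states were also called with TGF-b1, and their part in the keratin results was not tested. Of 10 luminal markers, 0 rose and 2 fell at 40 h, where 17.5% of all genes were called lower, and their median change was -0.02, beside 0.00 over all genes. The 2 were Muc1 with a change of -2.38 ± 0.19 and Cdh1 with -1.04 ± 0.09. The mean level of the list, these 2 genes included, was 6.91 to 6.96 on untreated arrays, 6.56 to 6.67 with TGF-b1 and 6.68 to 6.81 with FoxQ1 siRNA and TGF-b1. Under FoxQ1 siRNA 2 of the 10 rose, against 11.3% of all genes, and 0 fell. Cdh1 rose by 1.05 ± 0.09 and Epcam by 0.66 ± 0.13, while the list's median change was -0.00, beside -0.00 over all genes. Of 10 basal and myoepithelial markers 4 rose and 1 fell at 40 h (median change 0.10), with changes of 2.17 ± 0.14 for Tagln, -1.23 ± 0.14 for Mylk and 0.77 ± 0.11 for Egfr. The mean level of that list was 7.14 to 7.34, 7.42 to 7.71 and 7.74 to 7.82 in the same 3 groups. Krt5 and Krt14, the keratins of basal cells, were not called in any of the TGF-b1 or siRNA comparisons. Both averaged below the median gene of each table, so the lack of a call is of limited weight.

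Of 10 cornified epidermis markers, which include Krt1 and Krt10 of the other keratins, 1 rose and 1 fell at 2 h in newly made RNA, with changes of 2.95 ± 0.18 for Lce1f and -0.48 ± 0.12 for Ivl. The median change of the 10 was 0.03 in newly made and -0.02 in total RNA, beside -0.01 and -0.03 over all genes. The mean level of the list, Lce1f included, was 5.83 to 5.96 on control and 6.10 to 6.19 on TGF-b1 arrays of newly made RNA, and 6.32 to 6.34 and 6.55 to 6.65 in total RNA. At 40 h 3 of 10 rose and 1 fell, with Lce1f rising by 4.87 ± 0.26, and under FoxQ1 siRNA 3 rose, with Sprr1b at 0.68 ± 0.09. The list's median change was 0.06 and 0.05, beside 0.00 and -0.00 over all genes. Its mean level was 6.67 to 6.83 untreated, 7.11 to 7.23 with TGF-b1 and 7.33 to 7.47 with FoxQ1 siRNA as well.

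Fibroblast markers counted 1 rise of 9 at 2 h in newly made RNA and 2 rises of 9 at 40 h, led by Col1a1 with 0.79 ± 0.16 and 0.91 ± 0.12. Their median change was -0.04 and 0.10, beside -0.01 and 0.00 over all genes, and their mean level was 5.15 to 5.41 and 5.33 to 5.58 on the newly made arrays without and with TGF-b1. In NM18 cells it was 5.78 to 5.87, 5.99 to 6.01 and 5.90 to 5.97 in the 3 groups. Leukocyte markers counted 2 rises and 1 fall of 9 at 40 h, with a median change of 0.01, and 3 rises under FoxQ1 siRNA, with a median of -0.00 and the largest for Cd14 with 0.59 ± 0.10. Over all 12393 genes 1642 were called higher and 2165 lower at 40 h and 1399 higher under FoxQ1 siRNA. The leukocyte list's mean level stayed between 6.74 and 6.86 on all NM18 arrays. At 2 h in newly made RNA 1 of 9 was called, Cd14, which fell by 0.64 ± 0.15, with mean levels of 5.72 to 5.85 over the newly made arrays. A log2 scale has no zero, so no marker can be said to be absent.

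Over the 12 NMuMG arrays, the genes whose levels were most like those of Krt19 were Nipsnap1, Slc25a10 and Gsdmd (Pearson r = 0.994, 0.994 and 0.994), those most like Krt18 were Smarce1, Pclaf and Letm1 (r = 0.995, 0.994 and 0.994), and those most like Vim were Clptm1l, Supt5 and Igsf9 (r = 0.997, 0.997 and 0.995). These arrays fall into newly made and total RNA, and no r was computed within either kind. Over the 9 NM18 arrays the closest to Krt19 were Tspan8, Fcgbp and Foxa2 (r = 0.995, 0.994 and 0.993), and these arrays fall into treated and untreated groups. Krt18 was most like its filament partner Krt8 (r = 0.938), then Tmsb10 and Tert (r = 0.934 and 0.920), over a range of Krt18 levels of only 0.30. For Vim the closest were Ccl8, Hyal2 and Cnnm4 (r = 0.967, 0.956 and 0.953), over a range of 0.13. Symbols of clones and predicted genes were passed over in this ranking. These values describe the arrays and carry no test.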

How the data were processed

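Per the labels' protocols, NMuMG total and 4sU-enriched RNA were amplified with a two-cycle kit and NM18 RNA was labelled from the 3' end. The authors deposited 1 value per probe set and array, read here as log2 because the values span only 2.34 to 14.8 (NMuMG) and 4.57 to 14.6 (NM18). How they were summarised and normalized is not stated, though the submitters' processing notes list affy 1.18.2. The tables were treated separately. The platform annotation gave 1 symbol for 34945 of 45101 and 20380 of 22690 probe sets, and only these were used.

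Each table was fitted over all its groups with limma 3.58.1 in R 4.3.3 (lmFit, eBayes, two-sided), with 8 comparisons in all. The procedure was tested on simulated data. The members and lists were chosen with earlier results of these data known. Named genes were the 9 members, up to 3 called genes per list with the smallest p, Foxq1 and the 3 genes most like Krt19, Krt18 and Vim. For likeness, symbols of RIKEN clones and predicted genes were passed over. Groups follow titles and treatment labels, and 0 value columns stayed unmapped. Deviations of same-numbered arrays from their group means correlated at 0.16 to 0.61 in NM18, and at 0.12 to 0.73 between control and TGF-b1 within each kind of NMuMG RNA (-0.18 to 0.73 over all same-numbered pairs). Different-numbered arrays correlated at -0.51 to -0.04 in NM18, and at -0.58 to 0.35 between control and TGF-b1 within each kind of NMuMG RNA. The numbers therefore appear to pair NM18 arrays. In NMuMG the ranges overlapped, so pairing there is less clear. The main fit, which made the calls, did not use pairs. With the number as a block, Krt7 was also called in newly made RNA at 2 h, at 40 h, and with FoxQ1 siRNA and TGF-b1 against untreated cells. Alternatives were other scalings, arrays, probe sets, filters, blocks and left-out arrays. The number of arrays limits the precision.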

Additional observations from a re-analysis of the deposited data

How the results depend on the processing

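The Krt19 calls at 2 h in newly made RNA (between -1.20 and -0.90) and at 40 h held in all alternatives run. So did its call with FoxQ1 siRNA and TGF-b1 against untreated cells. The Krt20 calls at 2 h in both kinds of RNA and in both comparisons with FoxQ1 siRNA also held. Against control siRNA with TGF-b1, Krt20 ran between 0.85 and 1.11. Krt20 at 40 h, Krt19 in total RNA at 2 h and Krt19 with FoxQ1 against control siRNA were called in no alternative. Of the counts of called genes, 101 settings stayed within 1.5 times the first count or equal to it and 3 did not. With the replicate number as a block within each kind of RNA, 1 gene (Krt19) was called for a difference of TGF-b1 effects between newly made and total RNA, not 0. With the replicate block, 2 genes (Krt19 and Krt7) were called at 40 h, not 1. Quantile normalization gave 4 genes, not 2, for FoxQ1 siRNA with TGF-b1 against untreated cells, adding Krt7 (0.47, limma adjusted p = 0.0486) and Vim (0.20, limma adjusted p = 0.0164). Krt7 was also called there without FoxQ1 siRNA array 2 (0.62), and not without array 3 (0.28). The difference of Krt5 between newly made and total RNA in control cells ran from -0.26 to 0.0245 when arrays were left out in turn, turning positive without control total array 2. The fall of Krt23 in newly made against total RNA with TGF-b1 was lost in 4 alternatives, with an adjusted p of up to 0.238 without TGF-b1 newly made array 2, and also without TGF-b1 total array 1 or 3 and with the compared arrays alone. In control cells, median centring made the differences of Krt5 (-0.37) and Krt14 (-0.46) called, as did quantile normalization (-0.38 and -0.32), which also called Krt5 with TGF-b1 (-0.31, limma adjusted p = 0.0489). Krt5, Krt14 and Krt23 drop out under the filter on genes above the median level. The block within each kind of RNA could not be fitted for newly made against total RNA, where the block over the table changed no call. The causes were not tested.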
